A study of Homo sapiens and Mus musculus with 16 samples.

Results

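The protein arginine methyltransferase (PRMT) loci are the genomic windows around 8 genes, PRMT1, PRMT2, PRMT3, CARM1, PRMT6, PRMT5, PRMT9 and PRMT7, in human cells and around their orthologs in mouse cells. A region of accessible chromatin was counted to a gene if it overlapped the annotated gene body or the 50 kb on each side of it. The windows held 95 of 118107 regions in HPAF-II control cells, 76 of 97047 in HPAF-II HNF4G-KO cells, 71 of 68074 in KPC primary tumor cells and 74 of 80843 in KPC liver mets cells. Accessibility was measured by Omni-ATAC-seq, which uses a transposase to cut and tag DNA where chromatin is open. In such bulk samples, a region open in fewer cells and one less open in each cell cannot be told apart. HPAF-II is a human pancreatic adenocarcinoma line. Its control cells were the Cas9 control for the knockout, without disruption of HNF4G. Its HNF4G-KO cells had the nuclear receptor gene HNF4G disrupted by CRISPR-Cas9 and were, by the study's methods, a pool of 3 clones. The KPC lines, untreated, come from a mouse model of pancreatic cancer, and the comparison was between a line from a primary tumor and a matched line from liver metastases. The labels give their genotype as WT. Each of the 4 groups had 4 replicates, but 1 region list stood for all 4 of them. No replicate spread could therefore be computed, no test was possible, and every difference between lists is a description. Ages of the animals and the Cre driver were not given in the sources used here.

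PRMT enzymes transfer methyl groups from S-adenosylmethionine to arginine side chains of histones, RNA-binding proteins and transcription factors. Type I enzymes (PRMT1, PRMT2, PRMT3, CARM1 and PRMT6) leave asymmetric dimethylarginine, type II enzymes (PRMT5 and PRMT9) leave symmetric dimethylarginine, and the type III enzyme PRMT7 leaves monomethylarginine. PRMT1 does most of the asymmetric methylation in cells and PRMT5, with its partner WDR77, most of the symmetric methylation. The genes are broadly expressed, and their promoters are of the GC-rich kind that is open in most cell types.

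All 8 genes had an accessible region within 1 kb of one of their own annotated start sites in all 4 lists, and at every gene the strongest such region was present in both lists of its pair. Regions found in 1 list of a pair alone were mostly weak and lay beside these start site regions, in introns or between genes. The sequences below carry these contrasts. Capitals mark matches, on either strand, to short consensus sequences: GGGCGG (SP factors), CCAAT (NFY), TGACTCA or TGAGTCA (AP-1), TGTTTAC (forkhead, FOXA), TGTGGTTT (RUNX) and ACATTCCA (TEAD). A match describes letters in the reference and is not a bound site. Where a region was longer than 300 bases its central 300 are shown.
The first pair of sequences lies before the RefSeq start sites of PRMT1 and PRMT5, in the strongest regions of both windows (that of PRMT1 is inside the GENCODE gene, after its outermost start site), and is trimmed to the bases outside annotated UTRs:
PRMT1 upstream sequence, RefSeq GRCh38.p14, chr19:49677021-49677072, plus strand: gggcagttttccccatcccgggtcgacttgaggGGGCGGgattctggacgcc
PRMT5 upstream sequence, RefSeq GRCh38.p14, chr14:22929409-22929626, minus strand: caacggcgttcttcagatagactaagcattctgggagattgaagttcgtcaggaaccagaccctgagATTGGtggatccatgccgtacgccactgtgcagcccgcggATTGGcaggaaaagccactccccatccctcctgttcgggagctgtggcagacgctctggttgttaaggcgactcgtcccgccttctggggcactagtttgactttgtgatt
Of the control-only regions, those without a counterpart in the HNF4G-KO list, the strongest inside the PRMT1 gene is shown:
PRMT1 control-only region, hg38 reference, chr19:49684395-49684694, plus strand: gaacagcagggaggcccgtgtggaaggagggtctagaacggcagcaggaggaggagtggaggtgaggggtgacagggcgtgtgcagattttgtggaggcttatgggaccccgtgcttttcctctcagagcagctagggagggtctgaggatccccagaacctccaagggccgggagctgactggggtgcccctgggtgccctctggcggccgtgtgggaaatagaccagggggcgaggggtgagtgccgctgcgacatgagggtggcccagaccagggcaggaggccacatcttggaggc
This is the shared PRMT3 region with the largest fall in rank in HNF4G-KO cells, centred in an intron, with 18 of the bases shown annotated as coding and 18 as UTR in some transcript:
PRMT3 intron region, hg38 reference, chr11:20397295-20397594, plus strand: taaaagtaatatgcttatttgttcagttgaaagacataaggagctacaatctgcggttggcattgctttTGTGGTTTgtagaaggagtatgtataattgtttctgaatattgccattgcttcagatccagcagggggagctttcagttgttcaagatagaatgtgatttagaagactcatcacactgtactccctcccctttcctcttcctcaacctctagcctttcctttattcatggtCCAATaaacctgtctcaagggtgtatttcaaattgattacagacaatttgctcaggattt
In the KPC pair, the strongest region found in the liver mets list alone and the shared region with the largest rise both lay in the Prmt2 window:
Prmt2 mets-only region, mm10 reference, chr10:76248105-76248404, plus strand: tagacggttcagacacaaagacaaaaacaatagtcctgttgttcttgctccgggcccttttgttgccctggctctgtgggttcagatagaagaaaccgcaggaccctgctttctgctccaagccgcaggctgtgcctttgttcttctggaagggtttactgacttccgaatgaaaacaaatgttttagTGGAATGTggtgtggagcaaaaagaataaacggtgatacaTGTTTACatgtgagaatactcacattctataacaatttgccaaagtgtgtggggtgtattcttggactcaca
Prmt2 downstream region, mm10 reference, chr10:76190188-76190487, plus strand: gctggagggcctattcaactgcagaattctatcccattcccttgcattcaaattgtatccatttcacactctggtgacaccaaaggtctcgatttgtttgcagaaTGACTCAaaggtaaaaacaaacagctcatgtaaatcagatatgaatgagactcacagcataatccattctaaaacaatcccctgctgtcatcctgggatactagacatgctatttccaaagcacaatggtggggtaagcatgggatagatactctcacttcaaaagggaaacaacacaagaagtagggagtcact

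Each region carries a score given by the authors, whose scale is not stated. It was used only as a rank, the percentile of a region's score in its own list, where 100 is the strongest. A region was shared if a region of the other list of the pair overlapped it by at least 1 bp. Of the other regions, those in the control list are called control-only, those in the HNF4G-KO list KO-only, those in the primary tumor list tumor-only and those in the liver mets list mets-only. Intervals in brackets are Wilson 95% intervals, which cover counting error only.

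Start sites of all 5 epithelial genes fixed as markers (KRT8, KRT18, KRT19, EPCAM and CDH1) held a region in all 4 lists. These counts give presence and not strength. In HPAF-II control cells KRT18 (54.2), KRT19 (57.5) and CDH1 (74.6) lay below the coding gene start site median of 85.0, and KRT8 (87.8) and EPCAM (94.5) above it. COL1A1 (fibroblast, 86.7), CD68 (leukocyte, 96.8) and CELA3A (acinar, 96.9) were above it, and all other non-epithelial marker regions below. In KPC cells the 5 epithelial regions ranked from 16.1 (Epcam) to 58.1 (Krt19) in primary tumor and from 13.9 to 65.9 in liver mets cells. All lay below the coding gene start site medians of 74.3 and 76.9. The fibroblast gene Col1a1 was at 75.8 and 79.8, and the endothelial gene Pecam1 at 84.3 and 70.4. Regions were found at 0 to 1 of 3 endocrine, 0 to 1 of 2 endothelial, 1 of 3 leukocyte and 0 to 1 of 3 hepatocyte genes. For acinar genes the count was 3 of 5 in control, 4 of 5 in HNF4G-KO and 2 of 5 in both KPC lists, and for fibroblast genes 3 of 3 in both HPAF-II lists and 1 of 3 in both KPC lists. HNF4G itself, the targeted gene, had 13 regions in control cells and 9 in HNF4G-KO cells. Of the 13, 4 were control-only (30.8%, 12.7 to 57.6), beside 25.3% of regions on its chromosome and 25.0% of the whole list. Regions of the same score deciles would give 17.2%. A region at the HNF4G start site was present in both lists, and this does not check the knockout, since the guides were directed at coding exons. Depth per replicate is unknown from these lists, which differed in length, and regions found in 1 list of a pair were weaker than shared ones. The median percentile of control-only regions was 17.9 against 62.1 for shared control regions, and that of mets-only regions was 19.4 against 58.9 for shared liver mets regions.

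The start site regions ranked high and moved little between HPAF-II control and HNF4G-KO cells. PRMT5 stood highest, at percentile 98.5 in control and 99.2 in HNF4G-KO cells. PRMT2 followed in control cells at 94.8 and was at 94.6 in HNF4G-KO cells. PRMT7 was at 94.2 and 96.6, and its region also covers a start site of the neighbouring SLC7A6OS. PRMT3 was at 92.9 and 89.8, PRMT1 at 92.7 and 91.0, and PRMT9 at 90.8 and 88.7. PRMT6 was at 85.7 and 80.2. CARM1 was lowest in control cells at 82.9 and was at 85.9 in HNF4G-KO cells. Changes thus ran from -5.50 at PRMT6 to 3.01 at CARM1, with 5 genes lower and 3 higher. Over protein-coding genes, 74.8% had such a region in control and 72.7% in HNF4G-KO cells, at a median percentile of 85.0 and 84.7. The median change at coding gene start sites was -0.736 with quartiles of -4.68 and 1.74, so that 2 PRMT genes lay outside the quartiles on the high side (CARM1 and PRMT7) and 1 on the low side (PRMT6). Without replicates, an order among neighbours in this ranking cannot be told from error.

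In KPC cells the percentiles of these regions spread more widely. Prmt5 again stood highest, at 97.9 in primary tumor and 99.6 in liver mets cells, above 95.4% and 98.7% of coding genes with a start site region. Prmt7 was at 92.2 and 88.4, Prmt1 at 90 and 91.8, and Carm1 at 83.9 and 82.1. Prmt9 was at 79.3 and 85.7, Prmt2 at 74.0 and 82.6, and Prmt6 at 65.9 and 74.8. Prmt3 was lowest in both lists, at 59.4 and 66.8, although its human counterpart ranked above the human median. Prmt6, Prmt2, Prmt3 and Prmt9 were the 4 genes whose start site region rose most, by 6.35 to 8.94 percentile points, and Prmt7 fell by 3.82. The median over coding genes was a rise of 1.42, with quartiles of -2.67 and 6.38. In these lists 57.9% and 59.1% of coding genes had a start site region, at a median percentile of 74.3 and 76.9.

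**Figure D1:**
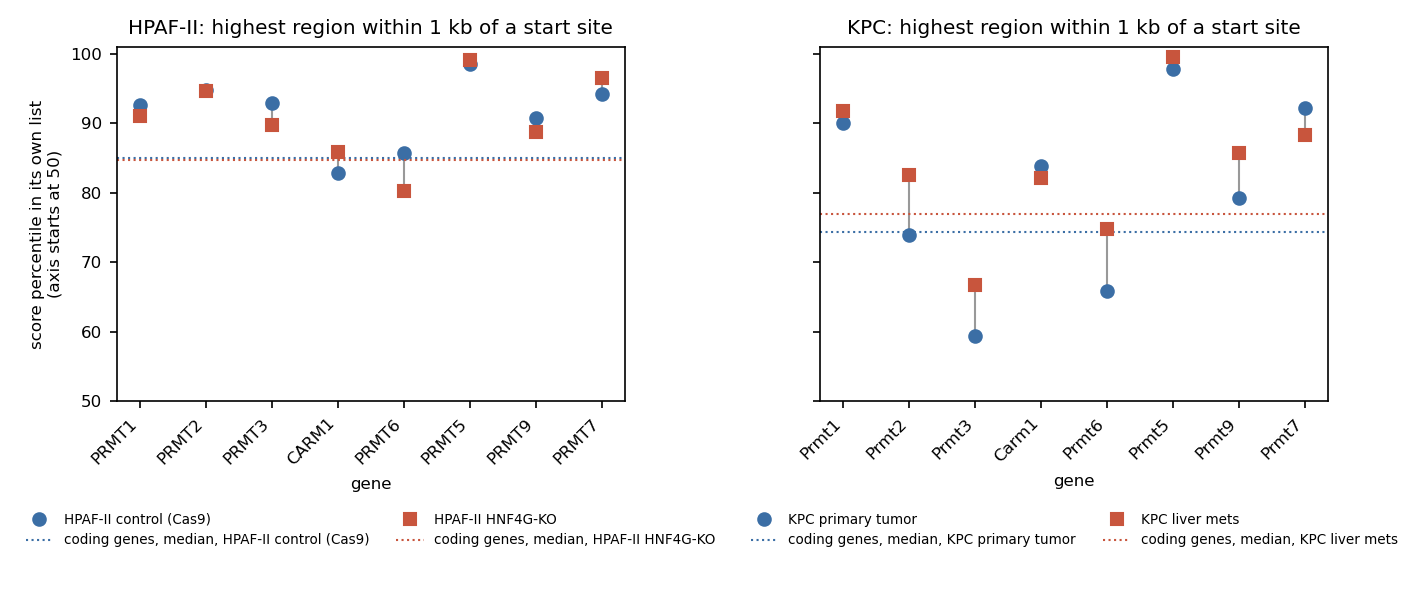
Score percentile (vertical axis, from 50 to 100) of the strongest region within 1 kb of a start site of each PRMT gene, with circles for the first list of a pair, squares for the second and dotted lines for the median over protein-coding genes. PRMT5 and Prmt5 are highest in all 4 lists, and Prmt2, Prmt3, Prmt6 and Prmt9 stand higher in liver mets than in primary tumor cells.

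Over the 8 windows, 25 of 95 control regions were control-only, a share of 26.3% (18.5 to 36), where 25.0% of the whole control list was control-only. The share was thus near that of the whole list. Regions of the same score deciles would give 23.0%, and regions of the same chromosomes 22.9%. In the HNF4G-KO list, 5 of 76 regions were KO-only, or 6.58% (2.84 to 14.5), beside 6.76% of the whole list. When regions a short distance from a region of the other list also counted as shared, 19 of 95 control regions were control-only. This share was 20%, beside 22.1% of the whole control list. The KO-only share stayed at 6.58%, beside 5.49% of the whole HNF4G-KO list. Some control-only regions thus lay close to an HNF4G-KO region. Control-only regions were found at 7 of 8 genes and KO-only regions at 5 of 8, beside 83.3% and 40.3% of coding genes with a region in these lists. They were weak and short: the control-only regions had a median percentile of 13.4 and a median width of 292 bp, against 63.3 and 596 bp for the shared ones, and 14 of the 25 were below percentile 20. Only 1 of them was above percentile 50, a PRMT9 intron region. Regions within 1 kb of any annotated start site made up 46 of the 95 control regions, or 48.4%, against 24.7% of the whole list, and 9 of these 46 were control-only, beside 14.4% of all such regions. Of the 49 other control regions 16 were control-only, beside 28.4% of all other regions of the list.

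**Figure D2:**
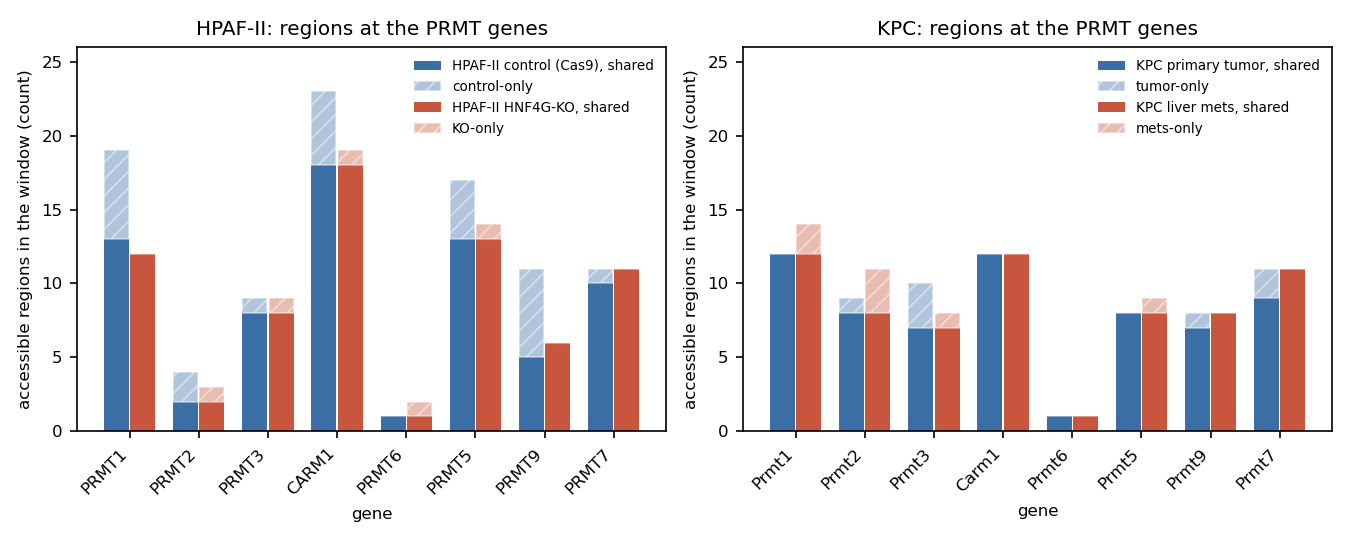
Number of accessible regions (vertical axis) in the window of each PRMT gene, with solid bars for regions shared by both lists of a pair and hatched bars for regions in 1 list alone. PRMT1 and PRMT9 each have 6 control-only and no KO-only region, and Prmt2 has the most mets-only regions, 3.

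PRMT1, the main type I enzyme, lies at chr19:49675786-49689029 (hg38, plus strand). Its window held 19 control regions and 12 HNF4G-KO regions, spanning 9.21 kb and 6.86 kb of sequence. This was a dense window, with more control regions per 100 kb than 97.3% of coding genes. Of the control regions 6 were control-only, or 31.6% (15.4 to 54.0), beside 20% of regions on chromosome 19. Regions of the same score deciles would give 25.9%. No HNF4G-KO region was KO-only, as at 41.2% of coding genes with at least as many HNF4G-KO regions. Of the 5 control regions in the gene body, 3 were control-only. They lay within 1 kb of a start site of a PRMT1 transcript, 2143, 2637 and 8556 bp into the gene, at percentiles 26, 10.4 and 35.5. The third, whose sequence is given above, held none of the consensus sequences searched for. The main start site region spanned 790 bp in control cells, at 49676606-49677395. Next to it the control list had a separate region of 318 bp, at percentile 31.4. In HNF4G-KO cells a single region of 1144 bp, at 49676616-49677759, reached over both. The remaining control-only regions lay outside the gene. They were at percentile 49.4, 37448 bp upstream, at 46.9, 41737 bp downstream of the start, and at 10.4 near a start site of CPT1C, a brain isoform of carnitine palmitoyltransferase. Of the 13 shared control regions, 9 ranked lower in HNF4G-KO cells and 4 higher, with a median change of -1.77. Ranked among shared regions alone, the direction turned, with 5 lower, 8 higher and a median change of 3.67. The largest fall was from 35.5 to 2.35, in a region 57452 bp downstream of the start, and the largest rise among regions that pair 1 to 1 was from 6.42 to 36.8, near a start site of CPT1C.

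PRMT2, a weakly active type I enzyme known as a coactivator of nuclear receptors, had a sparse window at chr21:46635595-46665124. It held 4 control and 3 HNF4G-KO regions. Its strongest control-only region lay 822 bp before the start site at percentile 48.7. A weaker control-only region lay 35055 bp after the start at percentile 8.12, and 1 KO-only region lay 13092 bp before it at 8.54.

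PRMT3, which methylates a protein of the small ribosomal subunit, has the longest gene body of the 8, at chr11:20387558-20509338. It held 9 regions in each list, of which 1 was control-only and 1 KO-only, both outside the gene. Each share was 11.1%, beside 22.7% control-only and 6.54% KO-only on chromosome 11. Inside the gene nothing was lost, but both intron regions ranked lower in HNF4G-KO cells. The one whose sequence is given above, 9734 bp after the start, went from percentile 60.9 to 29.5, and the other, 89843 bp after it, from 48.4 to 25.6. Ranked among shared regions alone, the falls were smaller, with changes of -23.1 and -11.4 points. Over all regions that pair 1 to 1, 15.1% fell by more than 20 points and 1.80% rose by as much. Among the PRMT windows 7 of 66 such regions fell by more than 20 points and 2 rose.

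CARM1, the coactivator-associated type I enzyme that methylates histone H3, had the most regions of the 8 windows, 23 in control and 19 in HNF4G-KO cells, at chr19:10871553-10923075. Of these 5 were control-only (21.7%, 9.66 to 41.9) and 1 KO-only (5.26%). On chromosome 19 the shares were 20% and 4.51%, and regions of the same score deciles would give 18.1% and 3.25%. In the gene body 1 of 5 control regions was control-only, an intron region 2846 bp after the start at percentile 43.4. A pair of strong intron regions, 27114 and 43893 bp after the start, was kept and ranked at 86.5 and 73.2 in control cells and at 88.7 and 78.1 in HNF4G-KO cells. An intron region 7473 bp after the start went from 59.1 to 44.7. Control-only regions near start sites of neighbours lay at DNM2, which encodes a dynamin, and TIMM29, a subunit of a mitochondrial import complex, both at percentile 10.4.

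PRMT6, a nuclear type I enzyme, lies in a window of very few regions at chr1:107056674-107067636. Its start site region was the only one in control cells. HNF4G-KO cells had 1 more, KO-only, 20233 bp after the start, at percentile 29.5.

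PRMT5, the main type II enzyme, lies at chr14:22920525-22929408 on the minus strand. Its window held 17 control and 14 HNF4G-KO regions, with 4 control-only and 1 KO-only. These shares were 23.5% and 7.14%, beside 22.5% and 7.74% of regions on chromosome 14. The start site region changed by 0.705 points, while the regions beside it ranked lower in HNF4G-KO cells. A region over an internal start site, 2671 bp into the gene, went from 54.5 to 33.2, and a region 966 bp before the start from 32.1 to 11.8. Ranked among shared regions alone, these changes were -11.2 and -7.71 points. The control-only regions were 36621 to 47509 bp before the start or 40960 bp after it, at percentiles 13.4 to 36.3. One control-only region lay near a start site of AJUBA, a LIM domain protein, at 13.4. The KO-only region lay near a start site of RBM23, an RNA-binding protein, at 10.2.

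PRMT9, the other type II enzyme, known for methylating a splicing factor, lies at chr4:147637785-147684163 on the minus strand. It had the highest share of control-only regions of the 8 genes, 6 of 11, or 54.5% (28 to 78.7), and 96.1% of coding genes had a lower share. Chromosome 4 itself had a control-only share of 33.9%, and regions of the same score deciles would give 41.9%. Of the 6, 5 were at percentile 8.12 or below. The sixth was the intron region 37485 bp after the start, at percentile 60.9. All 6 HNF4G-KO regions of the window were shared. A control-only region 533 bp after the start, at percentile 1.94, lay beside the start site region, which remained at 88.7. Another control-only region, at 147692872-147693074, lay next to the shared region at 147693332-147693579.

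PRMT7, the type III enzyme, lies at chr16:68310951-68360852. It had the lowest control-only share of genes with more than 1 region, 1 of 11 (9.09%), beside 21.2% of regions on chromosome 16. That region was outside the gene, at percentile 6.17. All 11 HNF4G-KO regions were shared. Its gene body held 3 strong regions in both lists. The one at the start rose from 94.2 to 96.6, and those 17431 and 40810 bp after it went from 89.5 to 83.8 and from 94.1 to 89.9.

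**Figure D3:**
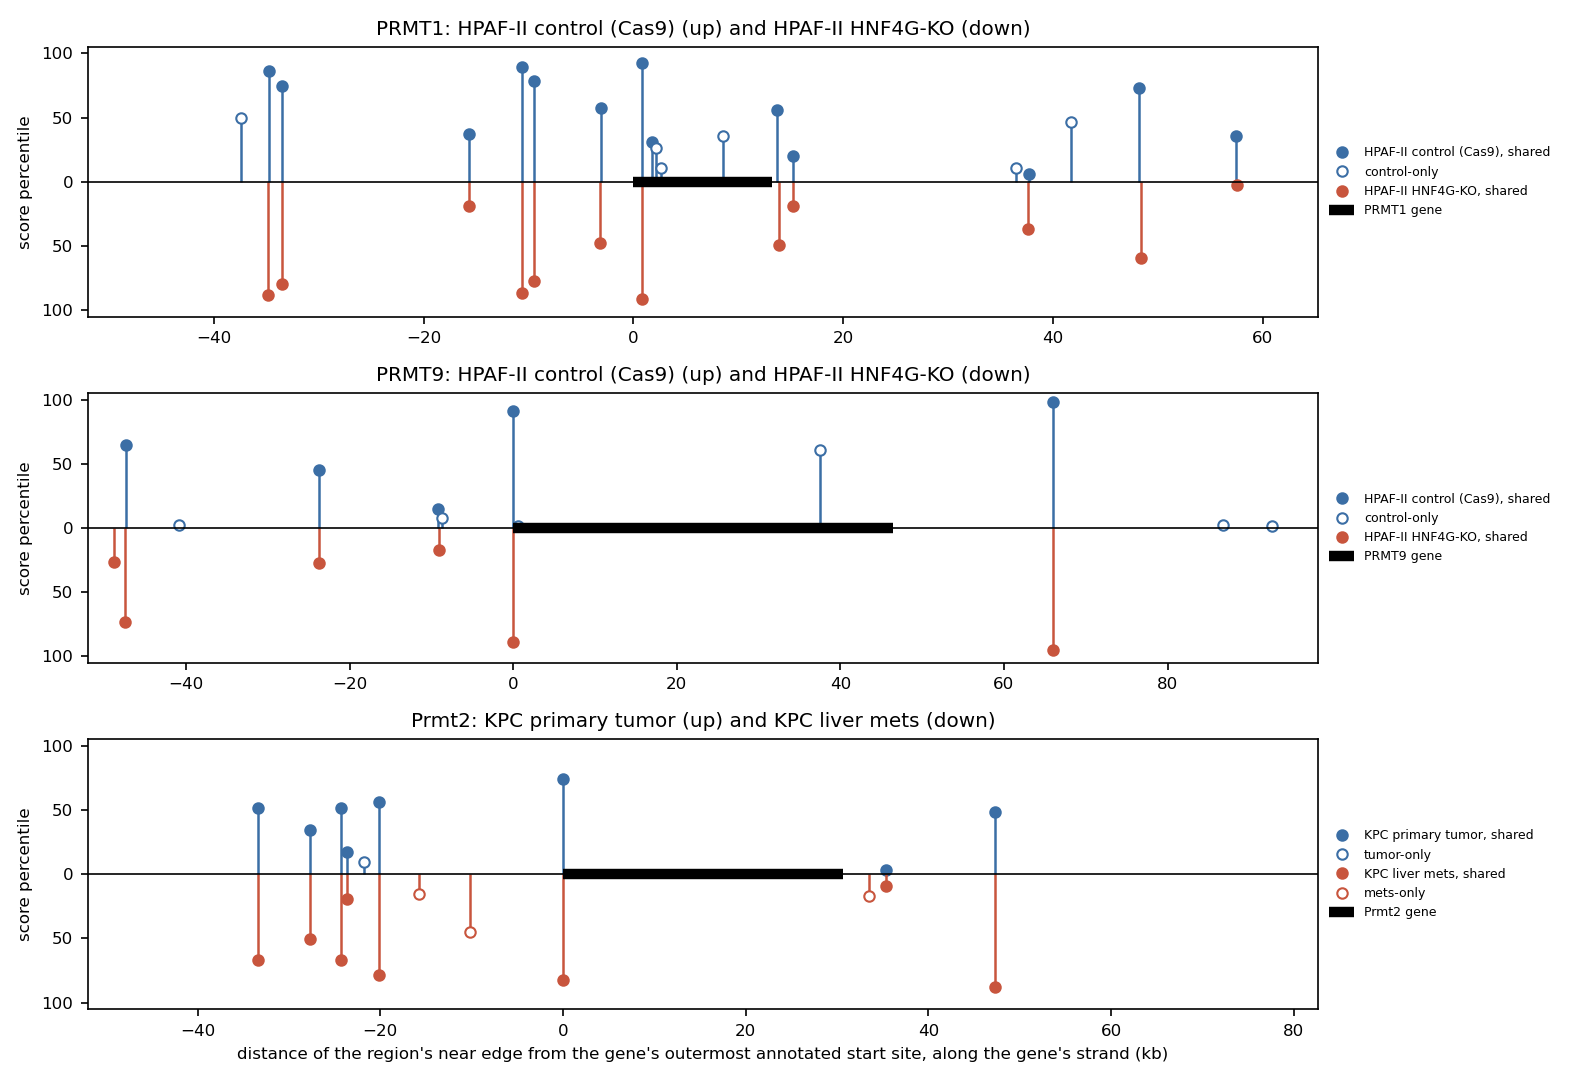
Regions in the windows of PRMT1, PRMT9 and mouse Prmt2 by distance from the outermost annotated start site (horizontal axis, kb), with height as score percentile, the first list of the pair above the line and the second below it. Open circles are regions in 1 list alone: at PRMT1 and PRMT9 they are all control-only, and at Prmt2 the strongest is mets-only.

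The 70 shared control regions had a median change in percentile of -2.31 from control to HNF4G-KO cells (quartiles -9.18 and 2.26). Of them 42 ranked lower and 28 higher. Over all 88632 shared control regions the median was -4.65, and 70.0% ranked lower. Since the HNF4G-KO list is shorter and lacks more of the weak regions, shared regions were also ranked among themselves. The PRMT median was then 1.13, beside 0.676 for all shared regions, so the direction of the change rests on which regions are ranked. By place, the median was -1.56 for the 37 shared regions within 1 kb of a start site, -7.74 for 17 intron regions and -4.72 for 13 regions between genes, beside -1.47, -6.22 and -6.41 for all shared regions of those classes. By type of enzyme, 14 of 56 control regions (25%) were control-only at the 5 type I genes, beside 25.0% of the whole list. At both type II genes 10 of 28 were (35.7%), 6 of them at PRMT9, and at PRMT7 1 of 11 (9.09%). The intervals of the shares by type, 15.5 to 37.7, 20.7 to 54.2 and 1.62 to 37.7, overlap. On the chromosome of PRMT9 33.9% of regions were control-only.

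**Figure D4:**
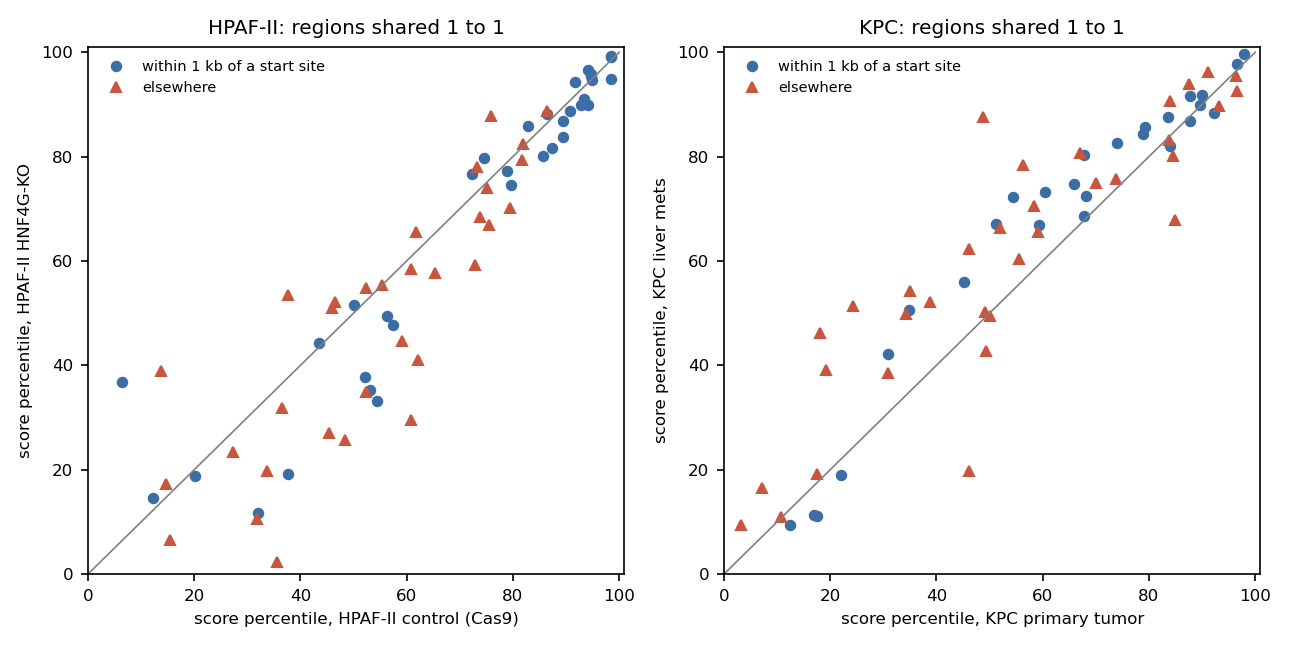
Score percentile of PRMT regions that pair 1 to 1 in the first list (horizontal axis) and the second list (vertical axis) of a pair, with the line of equal rank. In HPAF-II cells 40 of 66 points lie below the line, beside 71.3% of all such pairs, and in KPC cells 16 of 61 lie below it, beside 34.8%.

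In the KPC pair, few PRMT regions were found in the liver mets list alone. Of 74 liver mets regions 7 were mets-only, or 9.46% (4.66 to 18.3), beside 20.2% of the whole list. Regions of the same score deciles would give 16.6% and regions of the same chromosomes 19.5%. In the primary tumor list 7 of 71 regions were tumor-only, or 9.86% (4.86 to 19.0), beside 8.51% of the whole list. The mets-only share depended on the window. With 100 kb on each side it was 14.3% (9.44 to 21), with 10 kb 16.7% (6.68 to 35.9). Mets-only regions were found at 4 of 8 genes and tumor-only regions at 4 of 8, beside 71% and 43.6% of coding genes with a region in these lists. None of the 30 primary tumor regions near a start site was tumor-only, beside 5.80% of all such regions. Of the 36 liver mets regions near a start site 3 were mets-only, beside 9.80%. All tumor-only regions were weak, at percentiles from 2.2 to 11.9, and the mets-only regions lay between 2.86 and 45.2.

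Of the type I genes, Prmt2 (chr10:76207222-76237865, mm10) had the largest median change between primary tumor and liver mets cells. All 8 of its shared regions ranked higher in liver mets cells, with a median rise of 15.1 points, or 11 when ranked among shared regions alone, beside 3.67 and 0.988 over all shared regions. The largest rise among regions of the 8 windows that pair 1 to 1, from 48.7 to 87.5, was in the region 47336 bp after the start and beyond the end of the gene, which holds an AP-1 consensus. A region 20170 bp before the start went from 56.2 to 78.3. Of its 9 primary tumor regions 1 was tumor-only (11.1%), beside 5.83% of regions on its chromosome and 8.51% of the whole list. Of its 11 liver mets regions 3 were mets-only (27.3%), beside 26.6% of regions on its chromosome and 22.3% by score deciles. The strongest of these was 10155 bp before the start at percentile 45.2 and holds the FOXA and TEAD consensus sequences. Another, at 15.2, lay near a start site of S100b, a calcium-binding protein of glia. The human window of PRMT2, by contrast, held few regions, as given above.

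Prmt1 (chr7:44975989-44986568, minus strand) had 12 primary tumor regions, all shared, and 14 liver mets regions. Of the 14, 2 were mets-only (14.3%), beside 18.2% of regions on chromosome 7. One of these lay inside the gene, 3159 bp after the start and 142 bp from an internal start site, at percentile 22.4. The other lay near a start site of Cpt1c at 2.86. The largest fall among regions that pair 1 to 1, from 46.1 to 19.8, was 15926 bp before the Prmt1 start. Prmt3 (chr7:49778346-49858265) had 3 tumor-only regions of 10, at percentiles 10.9 to 11.9, and 1 mets-only region of 8 at 19.2. The tumor-only share, 30%, stood beside 7.55% on chromosome 7 and 8.51% of the whole list, and 96% of coding genes had a lower one. The mets-only share, 12.5%, stood beside 18.2% on chromosome 7 and 20.2% of the whole list. The strongest region inside the gene in primary tumor cells lay not at the start site but in an intron 45813 bp after it. It went from 85.0 to 67.9 while the start site region went from 59.4 to 66.8. Carm1 (chr9:21546894-21592623) had 12 regions in each list, all of them shared, with 10 higher and 2 lower in liver mets cells. Prmt6 (chr3:110246109-110250998) had its start site region alone, as in human control cells.

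Among the remaining genes, Prmt5 (chr14:54507187-54517525, minus strand) kept all 8 primary tumor regions, and 1 of 9 liver mets regions was mets-only, at percentile 14.4. This share was 11.1%, beside 22.9% of regions on chromosome 14. Prmt9 (chr8:77549397-77581338) had 1 tumor-only region of 8, at 11.2, and no mets-only region. Prmt7 (chr8:106210936-106252794) went the other way from the rest, with 6 of its 9 shared primary tumor regions lower in liver mets cells and a median change of -3.51. Both of its tumor-only regions lay in introns of the gene, at percentiles 3.64 and 2.2. Prmt9 and Prmt7 share a chromosome whose tumor-only share, 14.5%, was above the 8.51% of the whole primary tumor list and whose mets-only share, 13.3%, was below the 20.2% of the liver mets list. Over the 8 windows the 64 shared primary tumor regions had a median change of 4.85 (quartiles -0.882 and 12.4), with 45 higher and 19 lower in liver mets cells. The share lower was 29.7%, beside 35.1% of all 62280 shared regions, whose median change was 3.67. Ranked among shared regions alone, the PRMT median was 2.42 and that of all shared regions 0.988.

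Consensus sequences were counted in the regions of the windows and set beside their shares in the whole lists. GGGCGG was found in 40 of 95 control regions (42.1%, beside 23.9% of the list), but among regions near a start site in 31 of 46, beside 56.5% of all such regions. GGGCGTGGC or GGGTGTGGC (KLF factors) was found in 12 of 95, beside 3.75%, and near start sites in 9 of 46, beside 7.04%. In the liver mets list the KLF sequence was in 11 of 74, beside 4.04%, and near start sites in 8 of 36, beside 7.76%. The AP-1 sequence was found in 19 of 95 control regions (20%, beside 31.4%) and in 14 of the 49 away from start sites, beside 34.9%. CAAAGTCCA (HNF4) was found in 1 of 95 control regions, beside 1.60% of the list, and in none of 76 HNF4G-KO regions, beside 1.40%. The FOXA sequence was found in 10 of 95 control regions, beside 9.76%, and in 3 of the 25 control-only ones, beside 6.22% of all control-only regions. In KPC cells it was found in 2 of 71 primary tumor regions, beside 9.71%, and in 2 of 74 liver mets regions, beside 8.90%. PRMT regions of the control list had a median width of 414 bp against 462 bp for the list. In KPC cells they were wider than the list, with 570 against 516 bp in primary tumor and 510 against 409 bp in liver mets cells. Their median GC content was 54% against 49.3% in the control list and 53.2% against 48.5% in the liver mets list. The counts are not adjusted for width or GC content. Of the 10 RefSeq promoters of the 8 human genes, each 300 bases long, 8 held GGGCGG, where 45% of all 35116 promoters did. They belonged to PRMT1, PRMT2, PRMT3, CARM1, PRMT9 and PRMT7. CARM1 and PRMT7 have more than 1 promoter each among the 10, and those of PRMT7 overlap, so that some bases are read more than once. The GC content of the 10 ran from 58% at PRMT5 to 82.3% at CARM1, beside a median of 58.7% over all promoters. CCAAT was found at PRMT1 and PRMT5, where 34.6% of promoters held it. No match to the HNF4 or FOXA sequence was found in the 10, where 0.384% and 3.42% of promoters had one, and this says only that these letters are not in the windows read.

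Of the other genes of the arginine methylation pathway, 23 were listed: partners of PRMT enzymes, readers of methylarginine, enzymes that act on arginine or methylarginine, hydrolases of free methylarginine, enzymes of methyl donor metabolism and substrates. In HPAF-II cells all 23 had a shared start site region. Their windows held 318 control regions, of which 70 were control-only (22.0%, interval 17.8 to 26.9), and 265 HNF4G-KO regions, of which 12 were KO-only (4.53%, 2.61 to 7.75). The whole lists gave 25.0% and 6.76%, each within the interval. Shared control regions ranked lower in 164 cases and higher in 84. The highest control-only shares were those of PADI4, which converts arginine to citrulline, with 6 of 13 regions, RIOK1, which brings substrates to PRMT5, with 4 of 9, and EWSR1, an RNA-binding substrate, with 6 of 14. On their chromosomes 23%, 23.7% and 23.6% of regions were control-only. These genes were picked for their shares among 23 small windows. In KPC cells 22 of the 23 genes had a shared start site region. Of 282 liver mets regions 45 were mets-only (16.0%, 12.1 to 20.7), and of 252 primary tumor regions 20 were tumor-only (7.94%, 5.20 to 11.9). The whole lists gave 20.2% and 8.51%. The highest mets-only shares at genes with more than 3 liver mets regions were those of Btg1, a PRMT1 cofactor, with 2 of 6, Ahcy, which clears S-adenosylhomocysteine, with 3 of 10, and Mtap, which recycles methylthioadenosine, with 5 of 18. They were picked in the same way. On their chromosomes 26.6%, 18.3% and 19.5% of regions were mets-only.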

How the data were processed

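Omni-ATAC-seq was performed on 16 samples, 4 in each of 4 groups. The authors deposited 1 list of accessible regions per group. Each entry is a region with a score of unstated scale, and the submitters' processing notes name Bowtie2 2.2.6, MACS2 2.1.1.20160309, DiffBind and the builds hg38 and mm10 without giving their roles. All regions of the 4 lists fitted within the chromosomes of these builds. The deposited score was turned into a percentile in its own list. Windows, start sites and gene bodies came from GENCODE 44 (human) and M21 (mouse). Sequences were read from hg38 and mm10, and promoters from RefSeq GRCh38.p14. A shared region was paired with the counterpart of longest overlap, and changes are the second list of a pair minus the first (HNF4G-KO minus control, liver mets minus primary tumor). Background shares were computed over whole lists, score deciles and chromosomes. Of genes outside the 8, only those with a start site within 1 kb of a region found in 1 list alone, those nearest to such a region above percentile 50, listed pathway genes with the highest shares, and HNF4G were to be named. SLC7A6OS was added after its values were seen. Alternatives changed the overlap, score threshold, list size, window, gene assignment, start site regions, ranking and pairing. Overlap functions were tested on simulated regions. Analyses used Python 3.11.15, pandas 2.3.3, NumPy 2.4.6, SciPy 1.17.1 and matplotlib 3.10.9. With pooled lists, depth per replicate is unknown, and list length affects which weak regions appear. Members and gene lists were chosen with earlier results of these data known. Some sequences are not reported here.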

Additional observations from a re-analysis of the deposited data

How the results depend on the processing

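Each list pools 4 replicates, so no value without a replicate could be computed. No paired analysis was possible because the lists carry no replicate values. The 4 shares of regions found in 1 list alone were computed under 9 alternatives each and both median changes under 7 each. The control-only share was 12.5% with an equal number of regions from each list (90% of the shorter list by score), beside 13.7% of all regions, and the mets-only share was 1.79%, beside 13.0%. In the upper 50% of each list the mets-only share was 17%, beside 22.2%. The tumor-only share was 2.50% in the upper 50% of each list, beside 8.46%, but 16.7% with an equal number of regions, beside 14.5%, and 17.1% without start site regions, beside 9.56%. The HPAF-II median change was 1.13 when ranked among shared regions alone, beside 0.676 over all shared regions. The values under the other alternatives lay within the interval of the share or the quartiles of the change first given. The KO-only share ran from 3.33% to 12.3% and the KPC median change from 2.42 to 6.31. List length thus bears on every share. A split region counts more than once, which the 1 to 1 pairing removes (median -2.50 in HPAF-II and 5.11 in KPC cells).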

Other observations

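Some differences between lists came from where a region was cut. At the PRMT1 start site the control list had regions of 790 and 318 bp and the HNF4G-KO list 1 region of 1144 bp over both, so that the shorter control region, at percentile 31.4, was set against 91.0. In the Prmt9 window a start site region at percentile 85.3 in primary tumor cells, 30771 bp before the Prmt9 start, overlapped a liver mets region at 0.0668 as well as a stronger one. Of the 70 shared control regions 66 paired 1 to 1, and of the 64 shared primary tumor regions 61 did.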
